A study of Mus musculus with 13 samples.

Results

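Wide H3K27ac regions are stretches of chromatin of at least 4000 bp that the H3K27ac list of the mouse hepatoma line Hepa 1-6 (Hepa 1.6 in the labels) reports as 1 continuous enriched region. They were chosen by that width, which is itself a measured value, so the width of the members is a description and not a finding. The rule took 1246 of 57562 H3K27ac regions. Lists from 8 of the 13 samples were used, and the other 5, all inputs, were not analysed here. ChIP-seq, the sequencing of DNA pulled down with an antibody, was done on cells that the sample labels place in standard culture for the 3 histone marks H3K27ac, H3K4me1 and H3K9me3 and for KAP1. For the polymerases PolII (RNA polymerase II) and PolIII (RNA polymerase III), the labels give transfection with an shRNA plasmid and, as the treatment of all samples alike, a transduction 5 days ahead of fixation, and the methods give transduction with selection by puromycin. They carried either an shRNA against KAP1 (Kap1 KD) or a control, which is a control shRNA in the labels and an empty vector in the methods. All cells came from 1 tumour cell line, and the remaining level of KAP1 in Kap1 KD cells was not measured here. Each antibody and condition had 1 library, so no value below has a replicate error or a p-value. Shares carry 95% Wilson intervals and differences 95% Newcombe intervals, which cover counting error over regions only. Neighbouring regions are not independent samples, so these intervals are too narrow. The files hold no read counts, and the depth behind each list is unknown.

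Acetylation of histone H3 at lysine 27 marks active promoters and enhancers, the stretches of DNA that raise transcription of a gene from a distance. Enhancers usually also carry H3K4me1, whereas H3K9me3 marks silenced chromatin. Broad or clustered acetylated stretches are known from genes with high transcription in a given cell type. KAP1 (gene Trim28) is a corepressor that zinc finger proteins bring to DNA, where it recruits the H3K9 methyltransferase SETDB1. PolII is the enzyme that transcribes protein-coding genes, and it also produces short transcripts at active enhancers.

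Of 13 hepatocyte genes, 7 had an H3K27ac region of any width within 1 kb of a transcription start site (TSS), which is 53.8% (29.1 to 76.8%) and not apart from the 38.2% of all genes. They included Alb (albumin), Afp (alpha-fetoprotein) and Hnf4a. Apoa1, Apob, Ttr, Serpina1a, Fga and Cebpa had none. No marker of immune (5), endothelial (4), neuronal (3), muscle (3) or embryonic stem cells (3) had one, and 1 of 5 stellate and fibroblast markers (Col1a1) and 2 of 4 cholangiocyte markers (Krt19 and Sox9) did.

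The sequences below, read from mm9, show the DNA under representative members. Capitals in the first group mark matches to the AP-1 motif TGANTCA (AP-1 is the dimer of FOS and JUN proteins), the motif whose share differed most between KAP1 peaks in members and other KAP1 peaks in the search described further on. These 3 are the highest-scoring KAP1 peaks with such a match that lie over 1 kb from a TSS in intergenic members, and they were chosen after the values were seen. In the second group capitals mark any of the motifs searched, around the centre of the highest-scoring KAP1 peak of the 3 widest members without a TSS (the peak near Tnc is centred just outside its member). In the third group they mark the same motifs at the centres of the 2 widest members without TSS and KAP1 peak. Windows that touch an annotated exon or UTR were passed over.
KAP1 peak near Azin1, chr15:38391605-38391705, plus strand: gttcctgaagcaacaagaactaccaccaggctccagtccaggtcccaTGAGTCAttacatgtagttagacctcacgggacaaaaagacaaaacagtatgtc
KAP1 peak near 2810474O19Rik, chr6:149228375-149228475, plus strand: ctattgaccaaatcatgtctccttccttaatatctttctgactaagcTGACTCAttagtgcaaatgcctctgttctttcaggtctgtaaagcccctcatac
KAP1 peak near Zfp462, chr4:55154250-55154350, plus strand: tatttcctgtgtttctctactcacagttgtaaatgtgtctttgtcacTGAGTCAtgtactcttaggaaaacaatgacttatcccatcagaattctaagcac
KAP1 peak in the region nearest to Dcn, chr10:96899174-96899373, plus strand: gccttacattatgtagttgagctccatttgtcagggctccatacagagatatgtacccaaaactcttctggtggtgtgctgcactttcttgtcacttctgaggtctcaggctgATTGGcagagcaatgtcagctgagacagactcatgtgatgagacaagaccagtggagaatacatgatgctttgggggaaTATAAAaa
KAP1 peak in the region nearest to Tnc, chr4:63981692-63981891, plus strand: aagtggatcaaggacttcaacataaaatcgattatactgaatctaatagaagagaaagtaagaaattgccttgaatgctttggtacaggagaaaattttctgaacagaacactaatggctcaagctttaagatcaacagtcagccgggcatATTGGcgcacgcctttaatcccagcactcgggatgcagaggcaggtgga
KAP1 peak in the region nearest to Myc, chr15:61293325-61293524, plus strand: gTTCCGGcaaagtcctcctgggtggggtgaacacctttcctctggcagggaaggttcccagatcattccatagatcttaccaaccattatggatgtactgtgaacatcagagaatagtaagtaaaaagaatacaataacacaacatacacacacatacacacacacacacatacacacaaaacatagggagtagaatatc
centre of the region in Wnk1, chr6:119964396-119964595, plus strand: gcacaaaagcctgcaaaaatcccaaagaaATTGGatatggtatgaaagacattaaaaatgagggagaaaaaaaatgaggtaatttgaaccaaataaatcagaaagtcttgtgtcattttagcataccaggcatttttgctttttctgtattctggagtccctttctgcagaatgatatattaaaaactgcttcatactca
centre of the region in Oxr1, chr15:41424810-41425009, plus strand: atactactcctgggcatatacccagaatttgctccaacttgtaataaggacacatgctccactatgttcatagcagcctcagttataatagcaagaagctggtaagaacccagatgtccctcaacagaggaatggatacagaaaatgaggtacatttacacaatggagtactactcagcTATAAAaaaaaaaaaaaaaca

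The members ranged from 4000 to 27075 bp, with a median of 5274 bp and quartiles of 4532 and 6599 bp. The median of all H3K27ac regions was 532 bp. Members were 2.16% of the regions and held 14.9% of the acetylated length, 7.52 of 50.5 Mb, and 72 of them reached 10000 bp. The widths fell off without a break at the threshold. Just under it, 91 regions fell short by 100 bp or less, of which 36.3% met a KAP1 peak and 41.8% a Kap1 KD PolII peak. Just above it, 70 members exceeded it by less than 100 bp, with 25.7% and 41.4%.

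Chromosome 15 stood apart. It held 219 members among 3985 regions, 5.50% (4.83 to 6.25%), against 1.92% (1.80 to 2.04%) on the other chromosomes together. No other chromosome exceeded 3.11%. Chromosome Y had 3 regions and no member, and the next lowest shares were those of chromosomes 9 (0.442%), X (0.449%), 16 (0.611%) and 12 (0.718%). Chromosome 15, which makes up 3.90% of the assembly, thus held 17.6% of the members and 27 of the 72 that reached 10000 bp. Calls of 3 other lists were dense there too. It had 90.7 H3K4me1 regions, 68.7 H3K9me3 regions and 14.4 Kap1 KD PolII peaks per Mb, where no other chromosome exceeded 46.2, 37.9 and 9.99. KAP1 (8.41 per Mb) lay below chromosomes 11 (9.29) and 19 (9.26), and control PolII (4.77) was level with chromosome 11 (4.76). The part of these densities in the result was not tested, and the copy number of chromosome 15 in this line was not assessed here. Without chromosome 15, KAP1 met 28.3% of members, H3K4me1 97.6%, control PolII 20.8% and Kap1 KD PolII 49.3%.

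**Figure D1:**
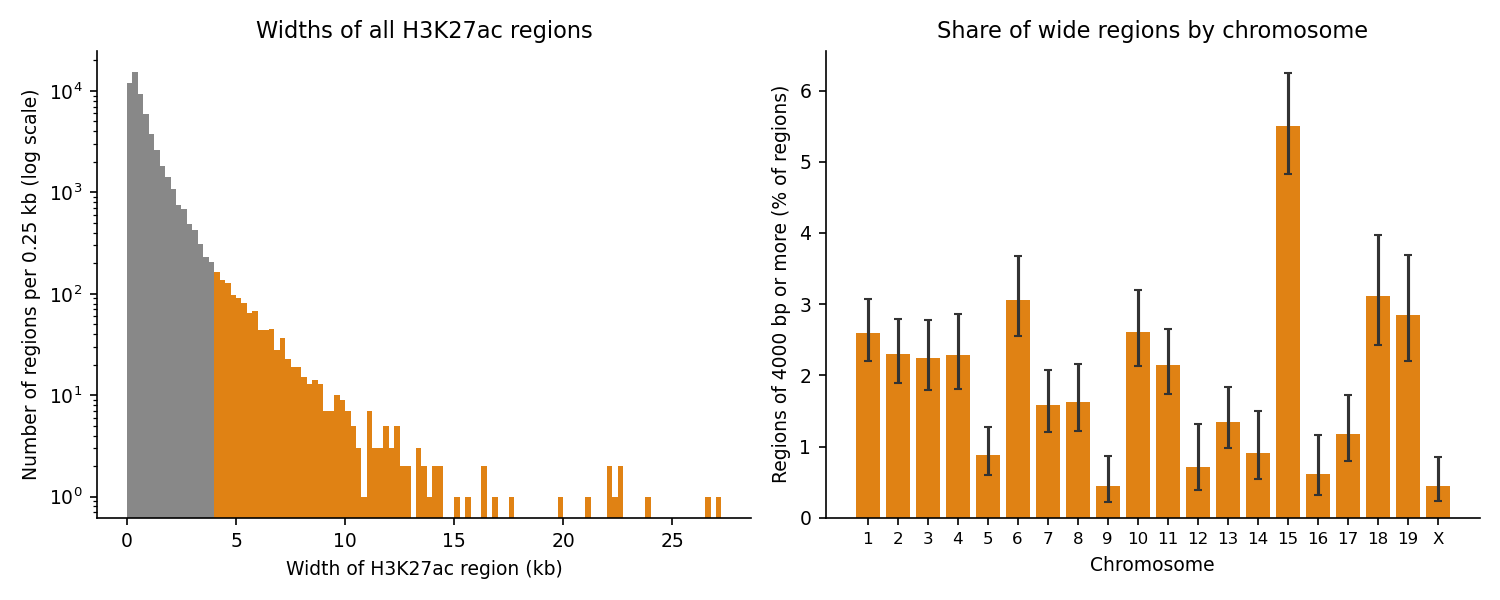
Left, number of H3K27ac regions per 0.25 kb of width (log scale), with regions of 4000 bp or more in orange and narrower ones in grey. Right, share of each chromosome's H3K27ac regions that reached 4000 bp, with 95% Wilson intervals; chromosome 15 stands at 5.50% and the next highest at 3.11%.

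Most members lay away from gene starts. A protein-coding TSS of GENCODE M1 lay inside 109 members (8.75%, 7.30 to 10.4%), against 3.53% of all H3K27ac regions and 6.61% of those of 2 to 4 kb (2000 bp or more but under 4000 bp). For members the share was 3.53% with 1 annotated 5′ end per gene and 16.2% after merging regions up to 500 bp apart. The shares of the other classes count every transcript start and were not computed by these measures. The annotated 5′ ends of 892 protein-coding genes lay in an H3K27ac region of any width, 48 of them in members. A further 100 members (8.03%) had a TSS within 1 kb of an edge, fewer than the 20.8% of all regions. The centres of 349 members (28.0%, against 30.4% of all regions) lay inside the body of a protein-coding gene. The 688 intergenic members were 55.2% (52.4 to 58.0%), against 45.3% of all regions and 50.4% of those of 2 to 4 kb. The median distance to the nearest TSS was 30105 bp, against 21966 bp for H3K27ac regions of 2 to 4 kb and 12906 bp for those under 2000 bp, and 25.7% of members lay over 100 kb from any TSS (16.7% of all regions). Where a TSS lay within 1 kb outside a member, the member was on the downstream side of the TSS in 62 of 100 cases (52.2 to 70.9%). The same share was not computed for other H3K27ac regions, so it is not shown to be particular to members. Around the 145 annotated gene starts within 1 kb of a member, wide regions covered 33.1% of positions at the start itself, 55.9% at 1 kb upstream and 74.5% at 1 kb downstream. Both PolII lists and KAP1 covered more of the starts than of the positions 1 kb downstream. Control PolII covered 44.8% of these starts, Kap1 KD PolII 60% and KAP1 32.4%, falling to 24.1%, 45.5% and 9.66% at 1 kb downstream. The same shares were not computed over all gene starts, so they are not shown to be particular to starts near members.

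**Figure D2:**
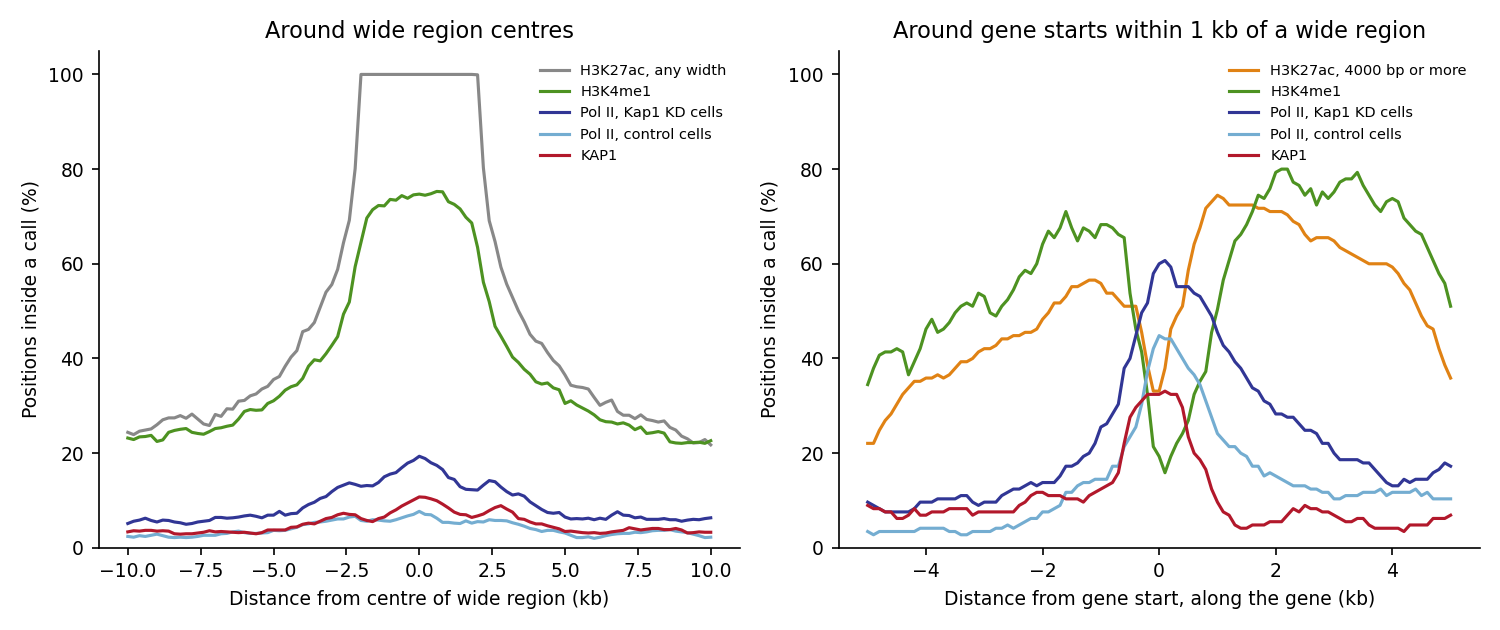
Share of positions that lay inside a call, against distance in kb, around the centres of the 1246 members (left) and along the gene around 145 gene starts within 1 kb of a member (right). H3K4me1 and H3K27ac dip at gene starts, where both PolII lists and KAP1 reach their highest values; the plateau of H3K27ac on the left follows from the width rule.

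Gene starts inside members were poor in CpG. Over the 300 bases from 250 before to 50 after the start, 22.7% of the 110 genes with a TSS inside a member (15.9 to 31.4%) reached a CpG observed/expected ratio of 0.6, against 45.2% of all 22380 genes. The 110 genes were taken at any transcript start inside a member, and the annotated 5′ end of only 48 genes lay in one, whereas all genes were taken at that 5′ end. Alternative starts are thus set against main ones. For 99 genes with a TSS within 1 kb outside a member the share was 66.7% (56.9 to 75.2%). A GC box (GGGCGG, bound by SP and KLF factors) was found in 16.4%, 43.4% and 53.5% of these promoters respectively. The 250 bases before the TSS are given for the 3 widest members with a KAP1 peak on the TSS of their only gene, followed by the 3 widest members with 1 gene start and no KAP1 peak, passing over windows as before, with capitals as in the second group above.
Pyroxd1 promoter, chr6:142293924-142294173, plus strand: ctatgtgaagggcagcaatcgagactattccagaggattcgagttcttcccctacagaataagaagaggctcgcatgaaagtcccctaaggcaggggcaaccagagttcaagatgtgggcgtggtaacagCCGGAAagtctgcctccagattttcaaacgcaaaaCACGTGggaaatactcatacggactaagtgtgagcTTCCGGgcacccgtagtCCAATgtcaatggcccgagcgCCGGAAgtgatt
2310043J07Rik promoter, chr5:136530112-136530361, plus strand: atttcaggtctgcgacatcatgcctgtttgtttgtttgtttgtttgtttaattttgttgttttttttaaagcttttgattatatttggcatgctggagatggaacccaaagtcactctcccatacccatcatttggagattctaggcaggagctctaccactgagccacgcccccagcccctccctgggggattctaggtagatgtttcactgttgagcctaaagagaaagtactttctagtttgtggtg
Hsd3b4 promoter, chr3:98313959-98314208, minus strand: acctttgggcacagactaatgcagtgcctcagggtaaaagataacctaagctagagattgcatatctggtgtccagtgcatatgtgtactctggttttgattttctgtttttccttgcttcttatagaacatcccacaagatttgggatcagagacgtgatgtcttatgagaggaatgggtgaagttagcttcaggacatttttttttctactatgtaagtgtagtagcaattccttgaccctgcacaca
Ifi47 promoter, chr11:48899952-48900201, plus strand: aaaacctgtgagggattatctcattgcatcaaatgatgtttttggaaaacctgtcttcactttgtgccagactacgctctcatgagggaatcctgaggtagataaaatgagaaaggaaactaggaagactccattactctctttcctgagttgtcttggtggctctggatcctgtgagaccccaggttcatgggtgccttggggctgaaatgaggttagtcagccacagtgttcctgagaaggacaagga
Colec10 promoter, chr15:54242079-54242328, plus strand: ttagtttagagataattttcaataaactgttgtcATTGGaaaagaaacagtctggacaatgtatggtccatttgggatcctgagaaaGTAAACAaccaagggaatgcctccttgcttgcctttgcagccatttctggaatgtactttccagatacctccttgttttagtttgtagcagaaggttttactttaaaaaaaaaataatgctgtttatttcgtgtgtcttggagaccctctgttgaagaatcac
Tmem71 promoter, chr15:66392609-66392858, minus strand: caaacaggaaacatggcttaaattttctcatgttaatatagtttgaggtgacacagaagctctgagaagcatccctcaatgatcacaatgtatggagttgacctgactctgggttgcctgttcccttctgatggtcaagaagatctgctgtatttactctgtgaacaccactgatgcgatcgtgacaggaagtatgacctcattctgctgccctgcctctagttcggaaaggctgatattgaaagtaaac
Pyroxd1, an oxidoreductase gene, had 13 CpG dinucleotides and matches to the CCAAT box, the ETS motif and the E-box. The other 5 had 1 to 3 CpG, and Colec10 (a collectin, a lectin of innate immunity) alone among them held a match, to the CCAAT box and the forkhead motif. Of all promoters of 300 bases, 37.9% held the CCAAT box, 17.5% the ETS motif, 7.78% the E-box and 3.11% the forkhead motif. Hsd3b4 belongs to a family of steroid dehydrogenase genes, and none of the 100-base tiles of its member had a unique placement in mm9, so its calls cannot be given to 1 copy.

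H3K4me1 accompanied nearly every member. It met 1221 of 1246 (98.0%, 97.1 to 98.6%), against 92.2% of regions of 2 to 4 kb and 67.8% of all H3K27ac regions. It covered 69.9% of the length of members, 64.3% of that of regions of 2 to 4 kb and 60.0% of all H3K27ac length. The median member held 2 H3K4me1 regions and was covered to 77.0%, and 131 members were covered to at least 99%. A wide region meets more calls simply because it is long, so centre windows of 1000 bp were compared as well. In these the share was 90.8% for members and 88.1% for regions of 2 to 4 kb, a difference of 2.70 points (0.724 to 4.50). Against all narrower regions it was 18.2 points (16.4 to 19.7). Without chromosome 15 the difference was 2.22 points (-0.0858 to 4.30), and its interval then reached 0. Of the 25 members without H3K4me1, 13 lay on chromosomes 12, 14, 16 or X. These held 10, 15, 9 and 9 members, and they had 7.64 to 15.8 H3K4me1 regions per Mb. Chromosome 9 had 8.63 per Mb, and all 8 of its members met H3K4me1. The widest of the 25, 9859 bp at chr5:87415273-87425131, lay 4754 bp from Ugt2b35, a glucuronosyltransferase gene.

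KAP1 peaks met 351 members (28.2%, 25.7 to 30.7%), against 14.1% of all H3K27ac regions and 23.6% of those of 2 to 4 kb. The covered share of the length did not follow this order. KAP1 covered 7.63% of the length of members, 7.87% of regions of 2 to 4 kb and 7.97% of all H3K27ac length. In centre windows the shares were 13.7% for members and 11.3% for the narrower class, a difference of 2.42 points (0.359 to 4.64). With a window of 2000 bp the sign turned, to -2.65 points (-4.92 to -0.228), and with all narrower regions as the comparison the difference was 0.0511 points (-1.77 to 2.09). The interval stayed above 0 with a window of 500 bp (2.53 points, 0.598 to 4.63) and without regions holding a TSS (3.17, 1.03 to 5.50). It also did so without chromosome 15 (2.16, 0.0208 to 4.52) and among intergenic regions (3.82, 0.891 to 7.02). The centre windows thus gave no difference that held across all of these choices. Of the 404 pairs of a KAP1 peak and a member, the peak centre lay outside the member in 127, at its edge. Among the 277 centres inside a member, 99 (35.7%) lay in the outer 50% of its length. KAP1 peaks in members had a median width of 1405 bp (1098 bp in the whole list), and their median score stood at percentile 50.2 of the list. PolII peaks in members stood at percentiles 66.8 (control) and 72.7 (Kap1 KD) of their lists.

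PolII was called in 256 members in control cells (20.5%, 18.4 to 22.9%) and in 603 in Kap1 KD cells (48.4%, 45.6 to 51.2%). Over all H3K27ac regions the shares were 8.65% and 18.1%. In centre windows the control difference between members and the narrower class was 2.44 points (0.675 to 4.39), and the Kap1 KD difference 6.78 points (4.09 to 9.57). The control interval reached 0 with a window of 2000 bp (0.361 points, -1.58 to 2.48), against all narrower regions (0.814, -0.752 to 2.62) and for peaks above the median score (0.994, -0.527 to 2.71), whereas the Kap1 KD interval did not under these choices. By location, among intergenic regions the differences were 4.49 points (2.42 to 6.92) and 8.91 points (5.49 to 12.5), and inside genes 3.12 (0.313 to 6.66) and 10.8 (5.93 to 15.997). Among regions with a TSS inside they were -3.68 (-12.6 to 6.41) and -5.22 (-15.99 to 5.81), and with a TSS within 1 kb outside -6.09 (-12.3 to 2.32) and -7.99 (-16.8 to 2.27), with intervals that span 0. Whether the differences vary with location was not tested. Kap1 KD PolII covered 14.6% of the length of members and 11.7% of all H3K27ac length. Members of 10000 bp or more met it in 65.3% of cases anywhere along them and in 22.2% (14.2 to 33.1%) in the centre window.

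**Figure D3:**
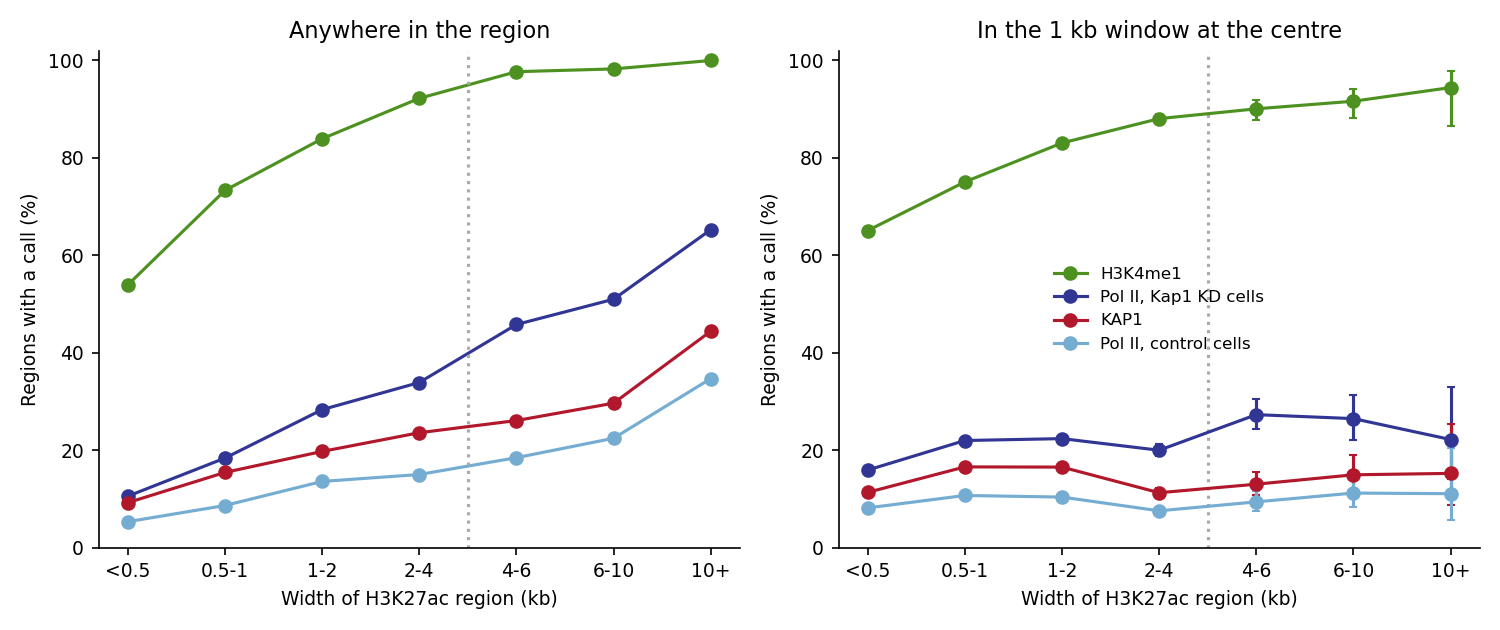
Share of H3K27ac regions with a call of each list, by width in kb, anywhere in the region (left) and in a 1000 bp window at the centre with 95% Wilson intervals (right); regions right of the dotted line are members. Anywhere in the region, Kap1 KD PolII goes from 10.6% in the narrowest to 65.3% in the widest class, while in the centre window no class exceeds 27.3%.

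The comparison of both conditions asks whether PolII sat at other places once KAP1 was depleted. Both lists called 247 members, the control list alone 9 and the Kap1 KD list alone 356, and 634 had neither. Over all H3K27ac regions the shares were 7.85%, 0.808%, 10.3% and 81%, against 19.8%, 0.722%, 28.6% and 50.9% of members. The Kap1 KD list is itself 2.56 times as long as the control list (12862 and 5015 peaks), and the ratio was 2.36 over members called and 2.10 over all H3K27ac regions called. Depth and condition cannot be told apart, as each had 1 library. The peaks carry running numbers, and numbers are missing from the control list (31.3%) and the Kap1 KD list (22.6%), so calls may have been left out of the deposited lists. Of the 356 members called only under Kap1 KD, 79 lay in such a gap of the control list, and 8 of the 9 called only in control cells lay in a gap of the Kap1 KD list. Of all members without a call, 276 of 990 (27.9%) lay in a gap of the control list and 155 of 643 (24.1%) in one of the Kap1 KD list. Of the Kap1 KD members at or within 1 kb of a TSS, 57.7% were also called in the control, against 35.5% of the intergenic ones, a difference of 22.2 points (12.3 to 31.6). The same shares over all H3K27ac regions were 51.4% and 34.0%.

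Members with KAP1 held PolII more often than those without, as did H3K27ac regions in general. Under Kap1 KD, 72.6% of 351 members with a KAP1 peak had PolII, against 38.9% of 895 without, a difference of 33.8 points (27.9 to 39.2). In control cells the shares were 34.8% and 14.97% (difference 19.8 points, 14.4 to 25.4). Over all H3K27ac regions the differences were 39.7 points (52.2% and 12.5%) under Kap1 KD and 25.6 points (30.6% and 5.04%) in control cells, and in regions of 2 to 4 kb they were 36.7 and 25.7 points, so the split was not shown to be particular to wide regions. The members with KAP1 were slightly wider (medians of 5539 and 5172 bp). Within members under 6000 bp, whose medians were 4747 and 4700 bp, the Kap1 KD difference was 33.8 points (26.4 to 40.6), within intergenic members 38.8 (31.0 to 45.8), within those at or near a TSS 21.4 (8.55 to 32.5), and on chromosome 15 it was 28.5 (13.7 to 41.5). KAP1 was profiled in cells under standard culture, so which KAP1 peaks remained in Kap1 KD cells is not known.

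The 1246 members fell into few combinations. H3K4me1 with neither KAP1 nor PolII was the most frequent (522 members, 41.9%), followed by H3K4me1 with PolII (350), with KAP1 and PolII (259) and with KAP1 alone (90), where PolII means either list. These are 28.1%, 20.8% and 7.22% of members. Over all H3K27ac regions the same 4 combinations made up 48.2%, 8.49%, 5.98% and 5.10%. The 25 members without H3K4me1 made up the rest, and 21 of those (1.69% of members, against 26.4% of all regions) had neither KAP1 nor PolII.

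H3K9me3, the mark of silenced chromatin, met 104 members (8.35%, 6.94 to 10.0%), against 4.32% of all H3K27ac regions. In centre windows of 1000 bp the order against all regions turned round, with 2.89% of members (2.09 to 3.97%) and 4.63% of all regions. The median width of all regions, 532 bp, is below that of the window, and regions under 500 bp had 7.16%. Against regions of 2 to 4 kb (1.44%) members stayed higher, by 1.45 points (0.558 to 2.58). Of the 104 members, 43 lay on chromosome 15, where 19.6% of members (14.9 to 25.4%) met it, against 5.94% (4.65 to 7.56%) elsewhere. Over all H3K27ac regions the shares on chromosome 15 and elsewhere were 4.67% and 4.29%. Members with KAP1 met H3K9me3 in 16.2% of cases and those without in 5.25%, a difference of 10.99 points (7.12 to 15.4). The same difference was 3.30 points (1.94 to 4.95) in regions of 2 to 4 kb and -0.668 points (-1.10 to -0.198) over all H3K27ac regions. On chromosomes other than 15 it was 8.97 points (5.32 to 13.4). By location it was 15.9 points (10.4 to 22.2) among intergenic members, 5.45 (-1.21 to 14.3) at or near a TSS and 3.72 (-2.51 to 13.3) inside genes, the last pair with intervals that span 0. Cover by H3K9me3 was mostly partial, with a median of 11.8% of the member and 24 members covered to at least 50%.

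Part of the overlap lay in repeated DNA. Cut into tiles of 100 bases, the read length, 2.59% of the members' sequence had no unique placement in mm9. For 26 members (2.09%, 1.43 to 3.04%) this was so for at least 50% of the tiles. In regions of 2 to 4 kb it was 1.52% of the sequence and 1.17% of the regions (0.889 to 1.55%). Of the 26 members, 18 met H3K9me3. Several sat side by side, near the Sprr2a genes (small proline-rich proteins of the cornified envelope) and Hsd3b4 on chromosome 3, Gm15319 on chromosome 8 and Olfr56 on chromosome 11. The 16774 bp member over Sprr2a1 and Sprr2a2 had 78.4% of such tiles and was covered to 83.4% by H3K9me3, and the 14260 bp member over Sprr2a2 and Sprr2a3 had 92.3% and 95.6%. Without the 26 members, KAP1 met 28.4%, Kap1 KD PolII 49.3% and H3K9me3 7.05%. PolIII was listed in 6 members in control cells (0.482%) and 2 under Kap1 KD (0.161%), against 0.455% and 0.281% of all H3K27ac regions.

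The motifs were searched as plain letters on both strands. For promoter elements these were GGGCGG (the GC box), CCAAT (the site of the factor NF-Y), CCGGAA (the core of sites of the ETS family), TATAAA (the TATA box), CACGTG (the E-box of MYC and USF proteins) and TGCGCA (a site of the factor NRF1). For signalling and liver factors they included TGACGTCA (the site of CREB and ATF proteins), TGANTCA (AP-1, of which the later added TGAGTCA is a subset), TGTTTAC (the forkhead motif of FOXA proteins), TTGCNNAA (the site of C/EBP proteins) and CAAAGTCCA (the site of HNF4). TGANTCA was found in 6.93% of all promoters of 300 bases. It stood in 17.8% of the 300-base windows at member centres (15.8 to 20.04%), in 16.7% at the centres of regions of 2 to 4 kb and in 10.5% at those of all H3K27ac regions. Members and the narrower class did not differ beyond counting error (1.09 points, -1.24 to 3.58). At KAP1 peaks the share was higher. It was 33.1% of the 390 KAP1 peaks in members, against 13.96% of the other 12080, a difference of 19.1 points (14.6 to 24.0). Over 1 kb from a TSS it was 36.2% (31.2 to 41.4%) in members, 35.3% in regions of 2 to 4 kb, 33.7% in regions under 2000 bp and 11.1% (10.3 to 11.9%) where KAP1 lay without H3K27ac. Between members and narrower regions the differences were 0.812 points (-5.37 to 7.14) and 2.43 points (-2.95 to 8.07), so the match was not shown to be particular to wide regions. The GC box did differ, with 4.66% of these peaks in members against 10.6% (difference -5.98 points, -9.14 to -2.47) and 13.9% (-9.26 points, -11.7 to -6.09). The median GC content of these windows was 45.7% in members, 47% and 48% in the narrower classes, and its part in the difference was not tested. The stricter form TGAGTCA, added after these values were seen, stood in 31.2%, 28.7%, 28.8% and 7.63% of the same windows. Within 1 kb of a TSS, 59.6% of 47 KAP1 peaks in members held GGGCGG. This was 59.7% in regions of 2 to 4 kb, 61.6% in those under 2000 bp and 57.5% without H3K27ac. TGANTCA stood in 10.6% of the 47 (4.63 to 22.6%), against 5.65%, 5.51% and 3.20% in the same classes. At member centres the C/EBP motif stood in 13.0% of windows, the forkhead motif in 6.18% and the HNF4 motif in 0.562%, against 13.8%, 5.05% and 0.424% of all regions. The GC content of the windows had a median of 41.3% for members and 42% for all regions. A match is a description of letters and not a bound site.

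**Figure D4:**
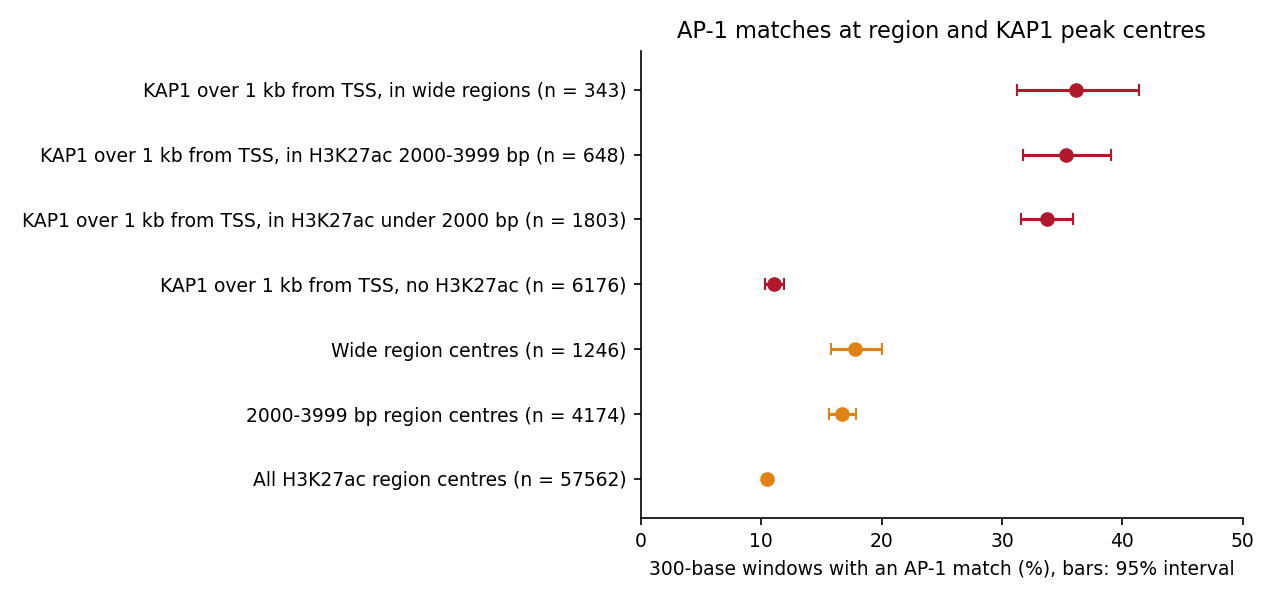
Share of 300-base windows with the AP-1 match TGANTCA and 95% Wilson intervals, at the centres of H3K27ac regions (orange) and of KAP1 peaks over 1 kb from a TSS (red), by class. KAP1 peaks in acetylated regions sit between 33.7% and 36.2% at every width, KAP1 peaks without H3K27ac at 11.1%.

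The 10 widest members all lacked a TSS, and 4 of them lay on chromosome 15. The widest, 27075 bp at chr10:96884022-96911096, lay 31.1 kb before Dcn, which encodes the matrix proteoglycan decorin. It held 1 KAP1 peak, 12 H3K4me1 regions and 3 PolII peaks in each list. The next, 26716 bp at chr4:63981957-64008672, was 300.2 kb from Tnc (tenascin-C, a matrix glycoprotein) and held 4 KAP1 peaks, 8 H3K4me1 regions, 1 control and 2 Kap1 KD PolII peaks. The region of 23900 bp at chr15:61275479-61299378 lay 517.6 kb before Myc, the growth-promoting transcription factor, and the region of 22016 bp at chr15:62882196-62904211 lay between Myc and Gsdmc. Inside genes lay the regions of 22594 bp at chr6:119953199-119975792 in Wnk1 (a kinase of ion transport), covered to 100% by H3K4me1, and of 22580 bp at chr15:41413620-41436199 in Oxr1 (an oxidation resistance factor). The others were nearest to Egfr (the receptor of epidermal growth factor, 22103 bp), Kitl (the ligand of the KIT receptor, 21073 bp), Tnfrsf11b (osteoprotegerin, 19993 bp) and 4932411N23Rik on chromosome X (22264 bp, 7 H3K9me3 regions and 16.2% of tiles without unique placement). Of these, the region near Kitl had neither KAP1 nor PolII, and neither had the 14068 bp member near Samd12 or the 14051 bp member near Fut9.

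Members gathered near some genes. They were nearest to 789 protein-coding genes (3.55% of 22238 gene symbols), of which 554 had 1 member and 47 had at least 4. Myc led with 19 members summing to 142739 bp, at 1.04 to 755.3 kb from the nearest of its annotated transcript starts. All 19 met H3K4me1, 4 met KAP1, 2 control PolII and 4 Kap1 KD PolII. The next were Tnc with 11, Oxr1 and Trps1 (a GATA-type repressor) with 10, and Phlda1, Tnfrsf11b and Trib1 (a pseudokinase) with 8. Myc, Oxr1, Trps1, Tnfrsf11b and Trib1 all lie on chromosome 15, and the closest members to Trps1 and Oxr1 were 80.9 and 64.0 kb from the TSS. Joining members less than 12.5 kb apart gave 1027 groups, 149 of which held at least 2 members and together 29.5% of all members. The 2 largest by summed width were 8 members over 78.7 kb at chr15:61241935-61320624, and 5 members over 66.3 kb at chr10:96884022-96950298 that held a TSS of Dcn. Nearness does not show which gene a region acts on.

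The stretch around Myc that is drawn in the map held 25 members, 16 before and 9 after it. All 25 met H3K4me1, 4 met KAP1, 2 control PolII and 5 Kap1 KD PolII. No PolII peak was listed within 1 kb of the Myc start in either condition, but both lists had missing numbers there, so a call left out of the lists cannot be told apart from the absence of one. The member closest to the start was 6594 bp wide and began 3.08 kb after it, inside Myc, whose annotated end lies at 4.98 kb. It lay 1.04 kb from the nearest annotated transcript start of Myc and met neither KAP1 nor PolII.

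**Figure D5:**
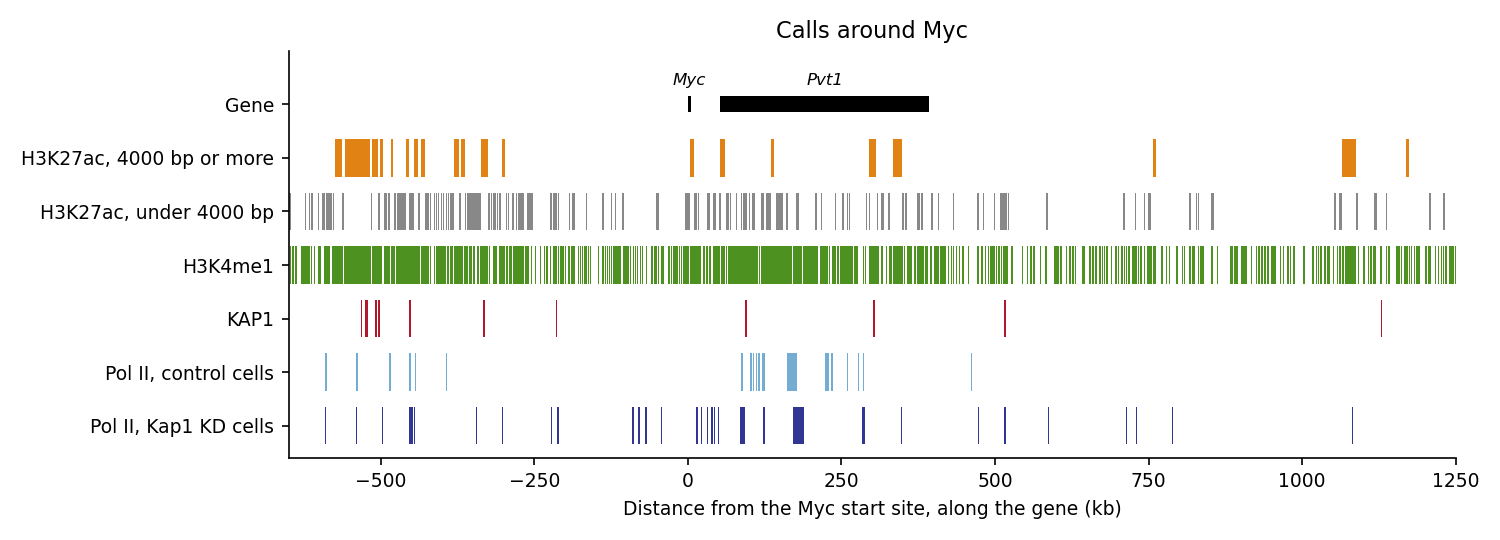
Calls of 6 classes around Myc, by distance from its start site in kb along the gene, with bars drawn at least 2 kb wide to be visible. The 25 wide regions stand in orange, 16 of them before the start site, and genes are drawn in black.

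Of the gene groups, growth control and immediate early genes had the highest shares with a member nearby. Within 50 kb of a TSS a member was found for 6 of 30 growth control genes (20%, 9.51 to 37.3%) and 8 of 41 immediate early genes (19.5%, 10.2 to 34.0%), against 4.75% of all 22238 gene symbols. Both groups were also above all genes (38.2%) for an H3K27ac region of any width within 1 kb of a TSS, with 23 of 30 and 33 of 41. The median distance to a member was 1448 kb for growth control genes and 1459 kb for all genes. The growth control genes were Myc, Met and Egfr (receptor tyrosine kinases), Igf2bp1 (an RNA-binding protein), Mdm2 (the ubiquitin ligase of p53) and Smad7 (an inhibitor of TGF-beta signalling). Egfr had 4 members of 4074 to 22103 bp, 3 of which met KAP1 and 3 Kap1 KD PolII, and Met had 3 of 4186 to 6643 bp. The immediate early genes, induced within minutes by growth factors or stress, were Ier5, Myc, Klf6, Dusp6, Btg1, Id1, Sgk1 and Mcl1. Their closest members were 4073 to 6594 bp wide and lay between 0.957 kb (Mcl1) and 40.5 kb (Ier5) away. Myc stands in both lists.

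Plasma protein genes followed with 7 of 51 (13.7%, 6.81 to 25.7%), though 4 of these (Apoc1, Apoc2, Apoc4 and Apoe, apolipoproteins of 1 cluster) shared the same 5209 bp member. The others were Cp (ceruloplasmin, a copper carrier), Igfbp1 and Igfbp4. Of 30 liver transcription factors, 2 had a member within 50 kb, Hhex with its TSS inside a 5172 bp member and Tbx3 at 0.02 kb from a 4205 bp one. Foxa2, the pioneer factor of liver, was the nearest gene of 2 members, the closer of which was 12062 bp wide, 132.2 kb away, and held 1 KAP1 peak and 5 H3K4me1 regions. Ribosomal proteins had 3 of 74, chaperones 2 of 22 (Hspa4 and Hspa8), cytoskeletal genes 1 of 21 (Actb, whose 5167 bp member met KAP1 and both PolII lists), KAP1 partners 1 of 23 (Cbx5, which encodes the heterochromatin protein HP1 alpha) and cholesterol synthesis 0 of 22. A region of any width lay within 1 kb of a TSS of 70 of 74 ribosomal protein genes and 19 of 22 cholesterol genes, against 38.2% of all genes. Only 0.495% of all genes had a TSS inside a member, and among the listed genes these were Hhex, Apoc2, Apoc4, Cp, Rpl30 and Cbx5. The lists are small, and their intervals overlap for most pairs. Of the 13 hepatocyte markers, none had a member within 50 kb.

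Of 1577 annotated miRNA genes, 31 began in an H3K27ac region of any width and 1 in a member. Mir21 (chr11:86397569-86397660, minus strand), whose product is abundant in many tumours, lies inside Vmp1, a gene of autophagy annotated at chr11:86397367-86497338 on the same strand. It sits in a member of 6047 bp at chr11:86394198-86400244 with 1 KAP1 peak and 1 PolII peak in each list, but no H3K4me1 region. Its hairpin on mm9 matched that of Mir21a in RefSeq (GRCm38.p6) letter for letter, and the mature sequences are given with the seed, bases 2 to 8, in capitals.
mmu-miR-21a-5p: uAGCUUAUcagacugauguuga
mmu-miR-21a-3p: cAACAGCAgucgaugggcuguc
Vmp1 was the nearest gene of 6 members, 4 of which formed a row at chr11:86394198-86416917 (22.7 kb). All 4 of these were called in both PolII lists, and 1 met KAP1.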

How the data were processed

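Peak lists of 8 ChIP-seq libraries from Hepa 1-6 cells were used, grouped by the antibody and cell labels. Per the methods of the study, the authors sequenced reads of 100 bases and mapped them to mm9 with Bowtie (Bowtie1 for peak calling). They used MACS with the input as control for KAP1 and PolII, and ChIP-Part for the histone marks. The program for PolIII, exact releases and the options of peak calling are not given in the sources used here. The deposited KAP1 and PolII lists carry a score for each peak (for PolII its meaning is not stated), used only for ranks and medians; the histone lists carry none. Depth is unknown, and the running numbers of the PolII lists have gaps, so calls may have been left out.

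Overlap meant at least 1 bp shared. Gene positions came from GENCODE M1 on NCBIM37 (mm9), with every protein-coding transcript start as a TSS. Centre windows of 1000 bp in members and in regions of 2 to 4 kb were compared, since a longer region meets more calls. Sequences were read with pysam 0.24.0, motifs were searched on both strands (1 is not reported here), and tiles were placed with minimap2 2.31-r1302 (mapping quality 0 or unplaced counted as not unique). Overlap, cover and interval functions (Python 3.11.15, numpy 2.4.6) were tested on simulated data. By rule, the named genes were those of the 10 widest members, the 5 widest without TSS, the 5 widest without KAP1 and PolII, and genes of the lists with a TSS in a member; sequences followed a like rule by width, with chromosome 18 left out. Other list genes near a member, genes with many members, Mir21, the AP-1 windows, TGAGTCA, the joining distance, the tiles and the CpG threshold were chosen after values were seen. The members and all lists were chosen with earlier results of these data known. Alternatives were other widths, merged regions, larger overlaps, peaks above the median score, other windows and comparison classes, and leaving out chromosome 15.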

Additional observations from a re-analysis of the deposited data

How the results depend on the processing

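The number of members was 2419 at a width of at least 3000 bp, 721 at 5000 bp and 2980 when H3K27ac regions up to 500 bp apart were merged. Merging raised the share with a protein-coding TSS to 16.2%, and counting 1 annotated 5′ end per gene lowered it to 3.53%. Merging also gave 30.9% for KAP1 and 96.1% for H3K4me1. At 3000 bp H3K4me1 met 96.8% and Kap1 KD PolII 43.7%, and at 5000 bp control PolII met 22.9% and Kap1 KD PolII 52.0%. With at least 0.1 of the member covered, the shares were 21.6% for KAP1, 95.3% for H3K4me1, 14.5% for control PolII and 37.1% for Kap1 KD PolII, and with at least 200 bp shared Kap1 KD PolII met 45.5%. With only peaks above the median score of their list, KAP1 met 14.8%, control PolII 14.1% and Kap1 KD PolII 36.8%. The shares under the last 3 rules can only fall, since fewer peaks or larger overlaps count.

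Differences between members and regions of 2 to 4 kb in centre windows were less stable. For KAP1 the difference turned to -2.65 points with a window of 2000 bp and to -7.64 among regions with a TSS inside, and it was 0.0511 against all narrower regions and 0.631 for peaks above the median score. For control PolII it was 0.361 with a window of 2000 bp, 0.814 against all narrower regions, 0.994 for peaks above the median score and -3.68 among regions with a TSS. For Kap1 KD PolII it was -5.22 among regions with a TSS and -7.99 among those with a TSS within 1 kb outside, and its interval stayed above 0 with windows of 500 and 2000 bp, against all narrower regions, without TSS regions, without chromosome 15, among intergenic regions and for peaks above the median score. For H3K4me1 the interval reached 0 among regions with a TSS (2.27), with one within 1 kb outside (-1.44), inside genes (3.08) and without chromosome 15 (2.22). The cause was not tested. The comparisons among intergenic regions, inside genes and near a TSS were added after seeing the data. No paired analysis was possible because each group has 1 library and no test was run over samples. No library could be left out for the same reason.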

Other observations

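Non-coding genes also began in members. The annotated 5′ end of 6 of 1273 lincRNA genes and 12 of 2572 genes of the processed transcript class lay in a member, against 48 of 22380 protein-coding genes by the same measure. Over H3K27ac regions of any width the counts were 92, 94 and 892. The widest such member, 10245 bp, held the start of B230216N24Rik near Pam and met Kap1 KD PolII but not KAP1. Gm12603 near Mtap began in a member of 8390 bp called in both PolII lists, and 9530072K05Rik near Runx2, the bone transcription factor, in one of 4822 bp called only under Kap1 KD. Gm11217 began in a member of 5288 bp among those nearest to Tnc, with no KAP1 or PolII call. These genes were named after their values were seen.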
